A study of Drosophila melanogaster with 27 samples.

Results

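The transcriptome of whole *Drosophila* heads was compared between flies that overexpressed the ALS-associated variant TDP-43 G298S and flies that overexpressed TDP-43 WT. The comparison used the libraries titled as inputs, made from head lysate before any pull-down, which were 3 TDP-43 G298S and 3 TDP-43 WT libraries, or 6 of the 27 libraries in the series. The other libraries were 3 inputs from flies with YFP alone, and the pull-down (IP) and unbound libraries of the same 9 lysates. TDP-43 G298S flies carried UAS transgenes for TDP-43 G298S fused to YFP and for the membrane marker mCD8-RFP in a *w* background. TDP-43 WT flies carried UAS transgenes for TDP-43 WT fused to YFP and for mCD8-RFP, also in a *w* background. The genotype labels of both lines write II, the second chromosome, after the transgenes, whereas the study's stock list sets mCD8-RFP of the TDP-43 WT line apart by a further semicolon, the place of the third chromosome, so the position of that marker in the WT line is uncertain. YFP flies carried a UAS-2XEYFP insertion in a *yw* background and no mCD8-RFP. In all of them the split GAL4 driver SS01276 drove the transgenes in a subset of mushroom body neurons (MBNs), so in most cells of each head the transgenes were not driven. Heads came from adults aged 1 to 3 days, males and females pooled in equal numbers, with 3 biological replicates per genotype. Each TDP-43 protein was represented by 1 transgenic line, so the variant and the rest of that line's genome cannot be told apart.

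TDP-43 is a nuclear RNA-binding protein that regulates splicing, transport and translation of mRNA, and it forms cytoplasmic inclusions in most cases of amyotrophic lateral sclerosis (ALS). The *Drosophila* mushroom body is a brain centre for olfactory learning whose intrinsic neurons are the Kenyon cells. A head lysate also holds the retina, glia, other neurons, muscle, fat body and blood cells, and these contribute most of its RNA.

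The 6 inputs differed in depth and 2 of them stood apart. Total counts were between 36171288 and 157035496 in the TDP-43 G298S inputs and between 18692447 and 102115249 in the TDP-43 WT inputs. Each library carries below its genotype and its title's number, and values of 3 libraries follow the order G298S-503, G298S-506, G298S-203, then WT-502, WT-505, WT-202, then YFP-901, YFP-902, YFP-201. Kenyon cell markers were detected (13 of 13 tested), but their summed level was 1517 to 1624 CPM (counts per 1e6 of TMM-scaled library size) in G298S and 982 to 1768 CPM in WT. That of 21 photoreceptor markers was 15117 to 15488 CPM in G298S and 17498 to 30295 CPM in WT. The cell type label, Kenyon cells, therefore names where the transgenes were driven and not the tissue sequenced. The first principal component of the 9 inputs carried 80.9% of the variance and did not separate the TDP-43 lines. YFP-901 and YFP-902 lay far from the rest on it, at 191.8 and 180.6. YFP-201 lay at 8.885 and the TDP-43 inputs between −106.4 and 0.8148. YFP-901 and YFP-902 share a title prefix that no other input has. They had 12489 and 12913 genes with a count, against 14832 in YFP-201. On the same component G298S-503 and WT-505 lay nearer the middle than the other 4 TDP-43 inputs. Deviations of log CPM from the mean of the 6 TDP-43 inputs correlated across genes between G298S-503 and WT-505 at 0.60. That is a value over genes, which are not independent replicates, and the genotype difference was not removed from it. Ovary follicle markers stood highest in G298S-503 and WT-505 among the 6 TDP-43 inputs. Their mean log2 CPM was 3.63, −3.20 and 1.74 in the G298S inputs, against −1.39, 3.11 and −3.26 in the WT inputs. Accessory gland markers stood lowest in the same 2 libraries, at 3.75 in G298S-503 and 2.74 in WT-505. The part of this in the results was not tested. The count of calls and the counts of several gene lists are also given without these 2 libraries. The human transgenes and the fluorescent proteins have no entry in the count table, so the expression of the transgenes was not analysed here.

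Few genes passed the test between the TDP-43 lines. Of 13151 genes tested with edgeR's quasi-likelihood test, 7 rose in TDP-43 G298S heads (0.0532%) and 2 fell (0.0152%) at a Benjamini-Hochberg adjusted p value below 0.05, 9 in all (0.0684%). The median log2 fold change (log2FC, TDP-43 G298S over TDP-43 WT) of all genes tested was −0.02. Unadjusted p values below 0.05 were found for 694 genes higher (5.28%) and 597 lower (4.54%). DESeq2 called many more on the same counts, 576 higher (5.57%) and 528 lower (5.11%) of the genes to which it gave an adjusted p value. Groups of 3 libraries that did not overlap were found for 997 genes higher (7.58%) and 730 lower (5.55%). The titles of G298S-503, G298S-506, WT-502 and WT-505 share a prefix whose meaning is not given, and within these 2 against 2 libraries edgeR called 1 gene higher and 0 lower, with 999 genes at an unadjusted p value below 0.05. Without WT-505, edgeR called 147 genes higher and 9 lower. Without both WT-505 and G298S-503, it called 4 higher and 1 lower.

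The 9 genes included very large differences, and for most of them one line had next to no transcript. The first pair lies on the X chromosome. *sordd2* had 21.9, 22.9 and 22.3 CPM in the G298S inputs, against 0.109, 0.134 and 0 CPM in the WT inputs. The YFP inputs had 31.0, 32.4 and 30.5 CPM. The 3 TDP-43 G298S libraries thus lay close together and far above the TDP-43 WT libraries, with a log2FC of 7.81 ± 0.36 (SE) and an edgeR adjusted p value of 6.7e-05. Its neighbour *CR44383*, annotated as a pseudogene, had 2.15, 1.85 and 1.61 CPM in G298S heads, against 0.0233, 0.0535 and 0 CPM in WT heads. It rose by 5.99 ± 0.67 on the log2 scale (edgeR adjusted p = 0.0239), with only 5 counts in the 3 WT libraries together. The next gene along, *sordd1*, did not pass the test, with a log2FC of −0.26 (edgeR adjusted p = 0.65). *sordd1* and *sordd2* are related genes, so reads shared between them could shift both values.

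A pair of neighbouring genes of the aldo-keto reductase family, NADPH-dependent enzymes that reduce aldehydes and ketones, also rose in TDP-43 G298S heads. *CG3397* had 10.9, 8.64 and 6.63 CPM in G298S heads, and no count at all in any of the 3 WT inputs. YFP inputs had 9.08, 9.04 and 13.6 CPM. The mean of *CG3397* in G298S heads was 549-fold a chosen floor of 3 counts over the WT group, and its edgeR adjusted p value was 0.0007992. From the pooled counts, in which deeper libraries weigh more, the exact 95% interval of the fold began at 393.1, for counting error only. *CG12224* had 5.98, 5.69 and 5.72 CPM in G298S heads, against 0.249, 0.134 and 0.130 CPM in WT heads and 5.95 to 7.92 CPM in YFP heads. Its log2FC was 4.98 ± 0.33 (edgeR adjusted p = 0.00061). The third gene in that row, *CG18547*, had 29.3, 28.6 and 20.9 CPM in G298S heads, against 9.10, 12.1 and 11.8 CPM in WT heads. Its groups did not overlap, but its log2FC of 1.26 did not pass the threshold (edgeR adjusted p = 0.0688).

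The other 3 genes that rose encode predicted enzymes of small-molecule metabolism. *CG11893* and *CG31436* belong to a large cluster of ecdysteroid kinase-like genes on 3R, whose known relatives in insects phosphorylate steroid hormones. *CG11893* had 34.3, 37.0 and 30.0 CPM in G298S heads, against 2.63, 3.50 and 3.298 CPM in WT heads, a log2FC of 3.43 ± 0.15 (edgeR adjusted p = 6.7e-05). *CG31436* had 43.3, 36.1 and 33.7 CPM in G298S heads, against 16.7, 13.6 and 11.5 CPM in WT heads. Its log2FC was 1.43 ± 0.18, and its edgeR adjusted p value of 0.0417 was close to the threshold. *Ugt35C1* encodes a UDP-glycosyltransferase, an enzyme class that conjugates small molecules to sugars. It had 45.3, 45.2 and 36.9 CPM in G298S heads, against 14.3, 14.3 and 12.8 CPM in WT heads, a log2FC of 1.62 ± 0.12 (edgeR adjusted p = 0.00144).

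Both genes that fell in TDP-43 G298S heads are predicted serine proteases and lie next to each other on 3R. *CG31219* had 0.993, 0.487 and 0.740 CPM in the G298S inputs, against 25.1, 29.9 and 19.1 CPM in the WT inputs. YFP inputs had 1.06, 1.05 and 1.17 CPM, close to the G298S libraries. The log2FC was −5.05 ± 0.30 (edgeR adjusted p = 0.00031). *CG31220* had 0.303, 0.260 and 0.172 CPM in G298S heads, against 4.23, 5.48 and 2.95 CPM in WT heads, and its log2FC was −4.12 ± 0.51 (edgeR adjusted p = 0.0417).

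**Figure D1:**
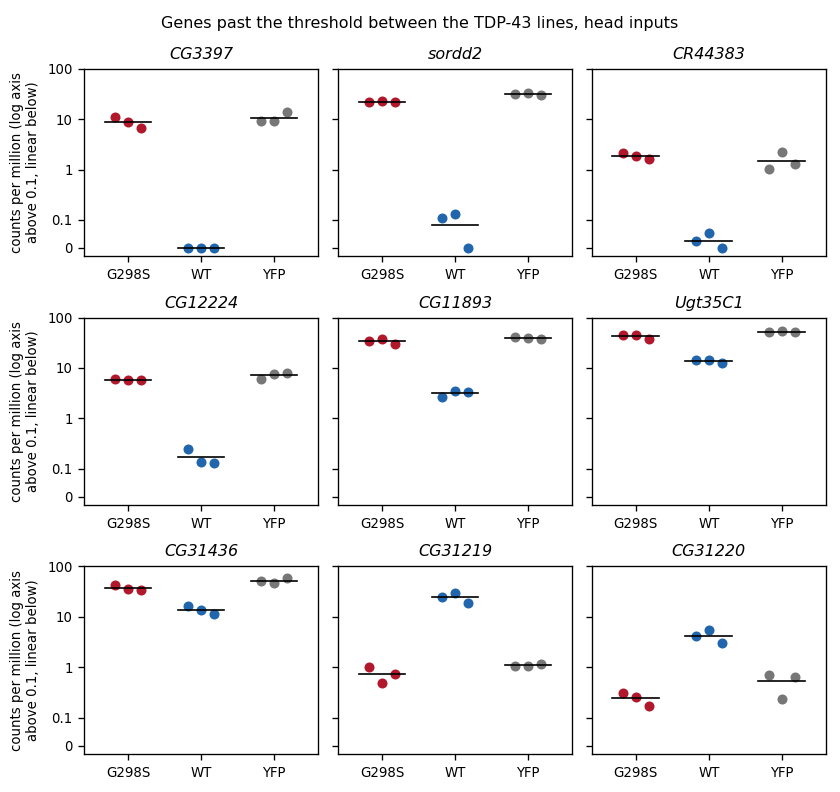
Level in each head input of the 9 genes that passed edgeR's test between TDP-43 G298S and TDP-43 WT, in CPM on an axis that is logarithmic above 0.1 and linear below, with 1 point per library, the mean as a line and the 3 genotypes side by side (G298S, WT, YFP). In each of the 9 genes the WT libraries stand apart from the G298S libraries, and the YFP libraries lie on the side of G298S.

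For all 9 genes the YFP inputs lay nearer to TDP-43 G298S than to TDP-43 WT. In the same edgeR fit, TDP-43 WT against YFP passed an adjusted p value of 0.05 for 9 of the 9, and TDP-43 G298S against YFP for 0 of the 9 (adjusted p values from 0.065 to 0.62). G298S and YFP are not thereby shown to be alike. In *sordd2*, *Ugt35C1*, *CG31436*, *CG11893* and *CG31219* every G298S input lay below every YFP input, and in the other genes the ranges overlapped. These contrasts share libraries with the main one, so they restate where the third genotype lay. *sordd2* had a log2FC of −8.30 in TDP-43 WT over YFP, and *CG31219* one of 4.49. Over all libraries of the lysates, the YFP range stayed apart from that of WT for every gene but *CR44383*. *CR44383* was between 0 and 5.34 CPM in YFP, against 0 to 0.196 CPM in WT. Over its 9 input, unbound and IP libraries, *sordd2* was between 21.9 and 31.6 CPM in G298S, against 0 to 0.134 CPM in WT and 23.1 to 45.3 CPM in YFP. *CG31219* was between 0.469 and 5.90 CPM in G298S, against 19.1 to 40.4 CPM in WT and 0.917 to 3.60 CPM in YFP. *CG3397* was at 0 in 8 of the 9 WT libraries, with 2 counts in the other one, and between 7.45 and 14.1 CPM in YFP. Libraries of one lysate are not separate animals, so these values repeat the measurement and not the biology.

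Of the 9 calls, which include adjacent genes, 7 lay on 3R, which held 24.6% of the genes tested, and 2 on X, which held 15.4%. The larger set called by DESeq2 had 25.7% of its genes on 3R and 14.2% on X, close to these shares. None of the 9 lay on the second chromosome. Its arms held 18.9% (2L) and 20% (2R) of the genes tested, and 17.5% and 19.1% of the DESeq2 calls. With 9 calls, some of them adjacent, this count does not measure a difference between arms. Within 6 places in gene order of the 9 genes lay 66 other genes, of which 58 were tested and 0 passed the threshold in edgeR. Among them 12 had an unadjusted p value below 0.05 (20.7%, against 9.82% of all genes tested). Of these, 4 were higher (6.9%, against 5.28%) and 8 lower in G298S heads (13.8%, against 4.54%). Around *CG11893*, the log2FC of the kinase-like genes between it and *CG31436* lay between −0.85 and 0.58.

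**Figure D2:**
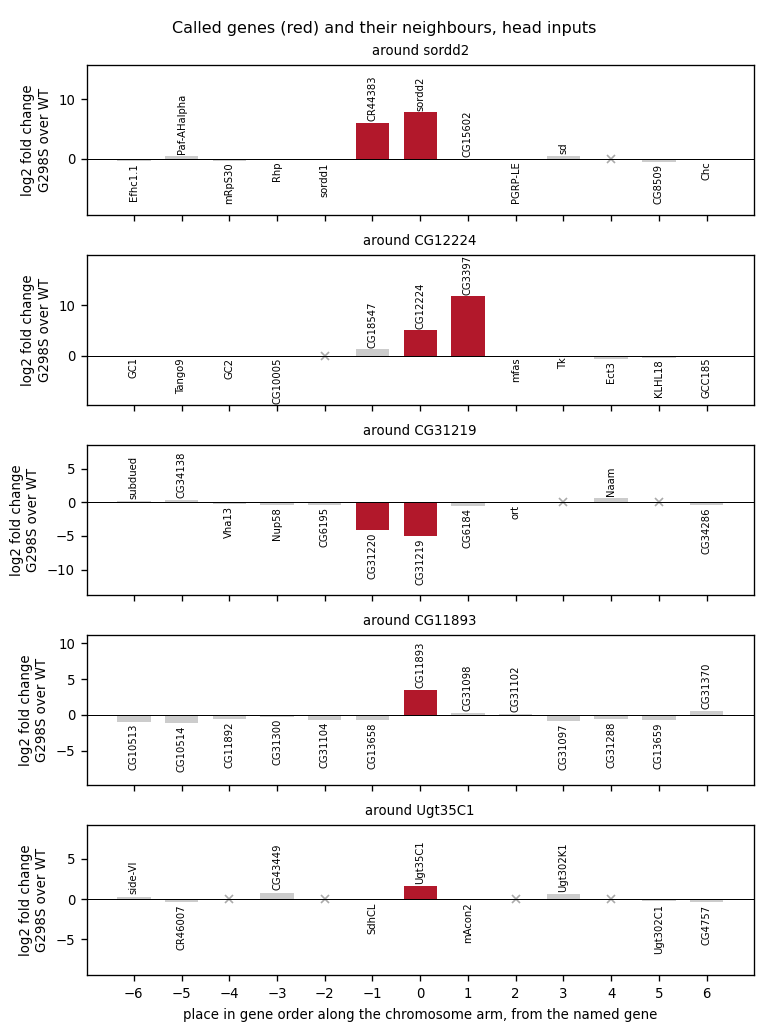
log2 fold change (G298S over WT) of genes that passed the test, in red, and of the 6 genes to either side in grey, by place in gene order along the chromosome arm, for 5 of the 9 genes as centres. Crosses mark neighbours that were too low to be tested, and the log2FC of *CG3397* is a fitted value against a group with no counts. Large bars are limited to the called genes, with *CG18547* (1.26) beside *CG12224* as the tallest grey bar.

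A further 11 genes that did not pass the threshold were taken by smallest unadjusted p value to fill each direction to 10, so some genes of the fuller direction with smaller p values than the last of them are not in this set. They were not uniform relative to YFP. In 9 of the 11, G298S heads differed from YFP at an adjusted p value below 0.05 in edgeR, and in 4 WT heads did. *Cyp309a1* and *Cyp309a2* are related cytochrome P450 genes, haem enzymes that oxidise lipids and toxins. *Cyp309a2* had 8.19, 9.36 and 7.80 CPM in G298S heads, against 19.3, 16.4 and 15.2 CPM in WT heads and 17.8 to 20.8 CPM in YFP heads. *Cyp309a1* had 8.66, 9.46 and 6.21 CPM in G298S heads, against 17.4, 19.5 and 17.5 CPM in WT heads. Their log2FC values were −1.01 and −1.16, and in both the YFP heads lay with WT and above G298S. *Osi2*, of the insect Osiris family, had 1.30, 2.50 and 2.35 CPM in G298S heads, against 7.05, 8.95 and 6.77 CPM in WT heads and 8.97 to 13.4 CPM in YFP heads. *CG7906* had 4.80, 6.04 and 4.92 CPM in G298S heads, against 11.2, 18.6 and 11.7 CPM in WT heads and 19.4 to 21.8 CPM in YFP heads. *CG43291* ran the other way, with 4.47, 3.18 and 4.70 CPM in G298S heads, against 0.598, 0.748 and 0.564 CPM in WT heads and 0.265 to 0.571 CPM in YFP heads.

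The remaining genes of this set were a sensory receptor, a mitochondrial carrier and genes of the eye and of insulin signalling. *Ir68a*, an ionotropic receptor that in flies serves moist-air sensing, had 2.32, 1.95 and 2.15 CPM in G298S heads, against 7.55, 8.36 and 4.64 CPM in WT heads and 2.41 to 2.71 CPM in YFP heads. *CG1907*, a predicted mitochondrial carrier, had 67.7, 60.9 and 59.2 CPM in G298S heads, against 136.0, 141.2 and 104.9 CPM in WT heads, with YFP heads between them at 90.4 to 99.5 CPM. *Sdr*, a secreted decoy for insulin-like peptides, had 23.4, 18.2 and 20.6 CPM in G298S heads, against 38.9, 37.5 and 33.0 CPM in WT heads. In each of these genes the G298S libraries lay below all 3 WT libraries. *ninaG*, which acts in making the rhodopsin chromophore, had 11.6, 10.8 and 12.5 CPM in G298S heads, against 20.7, 25.1 and 18.3 CPM in WT heads. *CG11309* was higher in G298S heads, at 64.7, 53.5 and 46.4 CPM, against 29.1, 27.4 and 24.3 CPM in WT heads. Their edgeR adjusted p values lay between 0.0688 and 0.11.

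Neither the endogenous TDP-43 gene nor the transcripts followed by the study passed the test in these heads. Of the 10 tested, 2 (*fz2* and *Rac2*) were higher and 0 lower at an unadjusted p value below 0.05, with a median log2FC of 0.23. *TBPH*, the fly orthologue of TDP-43, had 49.7, 47.2 and 52.8 CPM in G298S heads, against 52.7, 66.0 and 52.9 CPM in WT heads, a log2FC of −0.20 ± 0.13 (edgeR adjusted p = 0.68). *dlp*, a glypican that carries Wnt ligands at the cell surface, had a log2FC of 0.21, and *futsch*, a microtubule-associated protein of axons, one of 0.21. *futsch* was at 130.0, 141.2 and 115.0 CPM in G298S heads, within the 96.6, 168.1 and 70.0 CPM of WT heads. The Wnt receptors *fz* and *fz2* had log2FC values of 0.25 and 0.70. *fz2* was at 63.0, 57.5 and 56.8 CPM in G298S heads, above the 29.0, 49.7 and 30.6 CPM of WT heads, with an edgeR adjusted p value of 0.40 and a DESeq2 one of 0.0059. *Rac2*, a small GTPase of the actin cytoskeleton, was at 64.6, 66.4 and 56.6 CPM in G298S heads, also above the 27.9, 46.1 and 25.7 CPM of WT heads. Its log2FC was 0.91 (edgeR adjusted p = 0.30, DESeq2 adjusted p = 4.04e-05). *Dscam2*, a cell adhesion molecule of axon targeting, had a log2FC of 0.20. *Hsp70Bb* had 3.81, 3.15 and 5.02 CPM in G298S heads, inside the 2.02, 4.49 and 12.5 CPM of WT heads, and is uncertain because the *Hsp70* copies are near-identical. The eye pigment transporter gene *w*, which is also the usual marker of transgenes, was at 15.5, 14.0 and 14.5 CPM in G298S heads and 11.9, 18.2 and 19.0 CPM in WT heads, against 38.0 to 44.3 CPM in YFP heads. Both TDP-43 lines lay below YFP for *w* (log2FC −1.52, edgeR adjusted p = 0.0046 for G298S, and −1.37, adjusted p = 0.0099 for WT).

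Gene groups were then read from the same fit. In 34 lists edgeR called 0 members in either direction, so each group is given by its counts at an unadjusted p value below 0.05 (all genes: 5.28% higher and 4.54% lower), by DESeq2's calls, by its median log2FC and by its values per library. In bulk tissue, fewer cells of a type and less RNA per cell cannot be told apart. The genes named below are examples chosen after their values were seen, unless they are called abundant.

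Antimicrobial peptide genes, the secreted effectors of the fly's innate immune response, lay higher in TDP-43 G298S heads. Of 25 members tested, 18 were higher at an unadjusted p value below 0.05 and 0 were lower, against 5.28% and 4.54% of all genes. DESeq2 called 16 higher and 0 lower, against 5.57% and 5.11% of the genes to which it gave an adjusted p value. Their median log2FC was 1.06, against −0.02 for all genes, and 24 of the 25 had a positive value. *Dro*, Drosocin, had 394.3, 131.6 and 200.6 CPM in G298S heads, against 33.0, 26.0 and 25.2 CPM in WT heads, a log2FC of 3.11 ± 0.93 (edgeR adjusted p = 0.34). The YFP libraries ranged more widely for *Dro* than either TDP-43 line, at 14.7, 26.1 and 204.3 CPM. *DptA*, Diptericin A, had 113.4, 51.0 and 67.9 CPM in G298S heads, against 11.7, 7.72 and 14.8 CPM in WT heads. *Mtk*, Metchnikowin, had 226.7, 107.7 and 123.0 CPM in G298S heads, against 32.8, 21.8 and 21.3 CPM in WT heads. *AttC*, Attacin-C, had 290.7, 150.2 and 164.9 CPM in G298S heads, against 48.8, 52.3 and 53.0 CPM in WT heads. In all 4 genes G298S-503 was the highest library.

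*Drs*, Drosomycin, a peptide of the Toll pathway, had 67.0, 64.2 and 47.8 CPM in G298S heads, against 26.6, 35.5 and 24.0 CPM in WT heads. *Dso1*, Daisho 1, another Toll target, had 153.1, 148.6 and 114.6 CPM in G298S heads, against 49.6, 75.7 and 47.5 CPM in WT heads (log2FC 1.27, edgeR adjusted p = 0.108, DESeq2 adjusted p = 8.3e-13). Bomanins, short Toll-induced peptides, were mixed. The abundant *BomS3* had a log2FC of 0.89, and the abundant *BomBc2* had one of 0.07 with overlapping groups. Among 23 genes of immune recognition and signalling, 5 were higher and 2 lower at an unadjusted p value below 0.05, with a median log2FC of 0.16. *PGRP-SB1*, a secreted amidase that cleaves peptidoglycan, had 111.9, 74.0 and 69.6 CPM in G298S heads, against 28.4, 31.2 and 30.5 CPM in WT heads. *Tep2*, a thioester protein, was lower, at 101.0, 67.5 and 64.2 CPM in G298S heads, against 109.0, 127.9 and 138.5 CPM in WT heads. *TotX*, a Turandot stress gene, had 25.2, 26.7 and 16.5 CPM in G298S heads, against 5.52, 7.94 and 7.94 CPM in WT heads and 6.05 to 10.8 CPM in YFP heads. It was the 1 of 4 Turandot genes with an unadjusted p value below 0.05 (log2FC 1.68, edgeR adjusted p = 0.101).

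Without WT-505 and G298S-503, 11 of 25 were higher and 0 lower at an unadjusted p value below 0.05, against 10% and 4.42% of all genes in that fit, with a median log2FC of 1.24. The median was 1.10 in the 2 against 2 libraries whose titles share a prefix. Without WT-505 alone, edgeR called 6 of them higher, in a fit that called 147 of all 13202 genes tested higher. The mean log2 CPM of the list was 5.37, 4.96 and 4.81 in G298S heads, against 3.66, 3.97 and 3.47 in WT heads, and the groups did not overlap. YFP heads spanned both, at 3.49, 3.85 and 4.99.

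**Figure D3:**
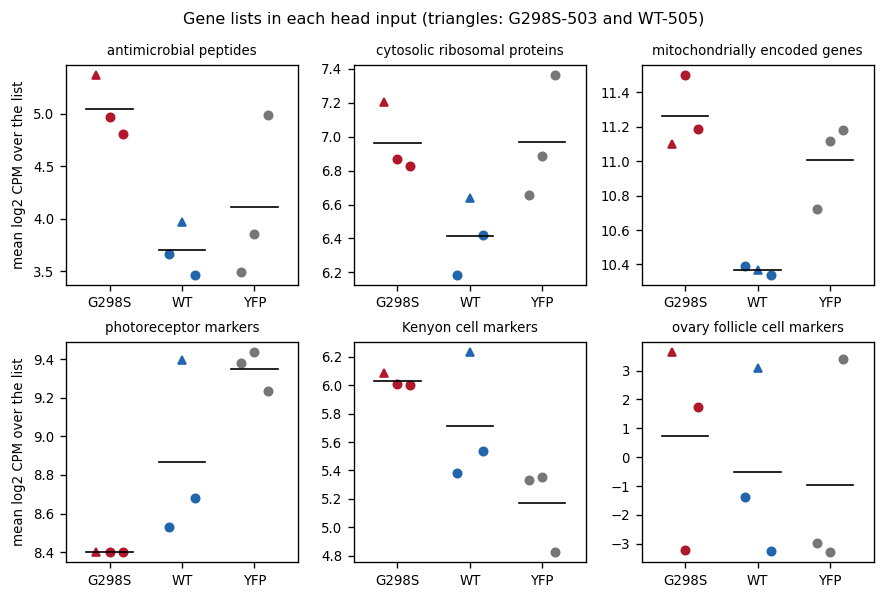
Mean log2 CPM of the members of gene lists in each head input, with 1 point per library, the mean as a line, triangles for G298S-503 and WT-505, and the genotypes in the order G298S, WT, YFP. Antimicrobial peptides, cytosolic ribosomal proteins and mitochondrially encoded genes lay higher in the 3 G298S libraries than in the 3 WT libraries, photoreceptor markers lay lower, Kenyon cell markers overlapped, and ovary follicle markers varied within every genotype.

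Genes for cytosolic ribosomal proteins also lay higher in TDP-43 G298S heads, by a smaller amount. Of 84 members, 54 were higher at an unadjusted p value below 0.05 and 0 lower, against 5.28% and 4.54% of all genes. DESeq2 called 45 higher and 0 lower, against its 5.57% and 5.11%. The median log2FC was 0.57. Without G298S-503 and WT-505, 25 of the 83 tested were higher and 0 lower, against 10% and 4.42% of all genes in that fit. The list's median there was 0.53. The median was 0.67 within the 2 against 2 libraries of 1 title prefix. In 64 of the 84 the 3 G298S libraries lay above the 3 WT libraries, against 7.58% of all genes. The mean log2 CPM of the list was 7.20, 6.87 and 6.83 in G298S heads, against 6.19, 6.64 and 6.42 in WT heads. YFP heads, at 6.66, 6.89 and 7.36, again reached over most of that range. The abundant *RpS2*, of the small subunit, had 498.8, 362.3 and 365.2 CPM in G298S heads, against 186.2, 316.1 and 288.3 CPM in WT heads. With library sizes in place of TMM factors the list's median was 0.16, while the median of all genes shifted to −0.45.

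Mitochondrial RNA took a larger share of the TDP-43 G298S inputs. *mt:lrRNA*, the large mitochondrial ribosomal RNA, held 43.6%, 43.4% and 45.1% of the counts in the G298S inputs, against 25.7%, 33.0% and 33.9% in the WT inputs. YFP inputs held 24.5%, 26.9% and 25.5%. The mean was 44.0 ± 0.93% in G298S heads and 30.9 ± 4.52% in WT heads (SD, n = 3 each), a difference of 13.1 percentage points. The groups did not overlap, and the exact two-sided permutation test gave p = 0.1, the smallest value that 3 against 3 libraries allow. In the model across all genes *mt:lrRNA* had a log2FC of 0.90 ± 0.22 (edgeR adjusted p = 0.287). The difference was 14.4 points without G298S-503 and WT-505, and 14.1 within the libraries of 1 title prefix.

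**Figure D4:**
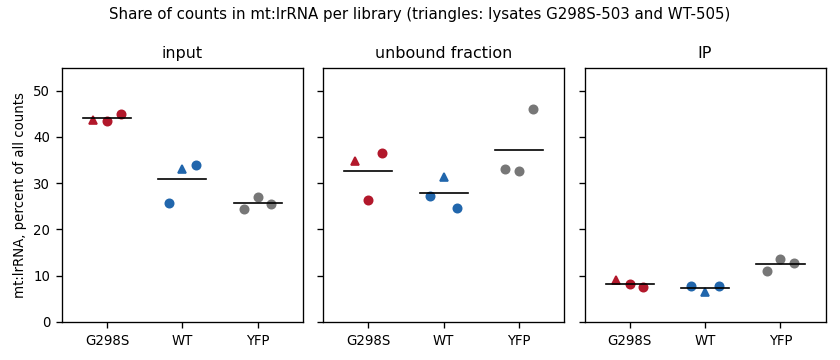
Share of all counts that fell in *mt:lrRNA*, in percent, for each library by fraction and genotype, with 1 point per lysate, triangles for G298S-503 and WT-505, and the mean as a line. In the inputs the G298S libraries, at 43.4% to 45.1%, lie above the WT libraries, at 25.7% to 33.9%, and in the unbound fractions the genotypes overlap.

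Other genes of the mitochondrial genome lay on the same side in TMM-scaled CPM. The list of 15 mitochondrially encoded genes tested includes *mt:lrRNA* itself. Of the 15, 14 were higher at an unadjusted p value below 0.05 (5.28% of all genes) and 0 lower (4.54%). DESeq2 called 13 higher (5.57% of all genes) and 0 lower. Their median log2FC was 0.90, which is the value of *mt:lrRNA*, and 0.95 both without G298S-503 and WT-505 and within 1 title prefix. Without those libraries again 14 were higher and 0 lower, against 10% and 4.42% of all genes in that fit. The median was 0.48 with library sizes in place of TMM factors. As a plain share of counts, the scale used for *mt:lrRNA*, the mitochondrial protein-coding genes held 3.92%, 5.63% and 4.55% in G298S heads, against 4.46%, 2.82% and 3.48% in WT heads. These groups overlapped (exact two-sided permutation p = 0.2), as did the share of *mt:srRNA* (exact two-sided permutation p = 0.2). *mt:ND5*, a subunit of complex I, had 3244, 4253 and 3497 CPM in G298S heads, against 1435, 1607 and 2048 CPM in WT heads (log2FC 1.11, edgeR adjusted p = 0.107). The abundant *mt:ATPase6*, of the ATP synthase, had 9662, 12070 and 9090 CPM in G298S heads, against 5718, 5874 and 5406 CPM in WT heads. *mt:srRNA*, the small ribosomal RNA, had 99.8, 163.2 and 122.7 CPM in G298S heads, against 74.5, 61.2 and 63.0 CPM in WT heads. For *mt:ATPase6* the YFP heads, at 7819, 10940 and 10390 CPM, lay with G298S, whereas for the share of *mt:lrRNA* they lay with WT. The nuclear genes of the same respiratory complexes did not share this direction. Of 81 of them, 0 were higher and 8 lower at an unadjusted p value below 0.05, with a median log2FC of −0.19. *ND-75*, of complex I, had 204.0, 165.3 and 175.1 CPM in G298S heads, against 243.0, 298.7 and 263.0 CPM in WT heads. Of 71 mitochondrial ribosomal protein genes, 0 were higher and 2 lower, with a median of −0.14.

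Photoreceptor genes lay lower in TDP-43 G298S heads. Of 21 markers tested, 0 were higher and 14 lower at an unadjusted p value below 0.05, against 5.28% and 4.54% of all genes. DESeq2 called 0 higher and 14 lower, against its 5.57% and 5.11%. The median log2FC was −0.68. The abundant *ninaE*, the main rhodopsin of the outer photoreceptors, had 4567, 4986 and 5130 CPM in G298S heads, against 5381, 9265 and 4871 CPM in WT heads. These groups overlapped, and WT-505 was the library far above the others. The abundant *Arr2*, the arrestin that switches rhodopsin off, had 2602, 2213 and 2556 CPM in G298S heads, against 3057, 5623 and 3787 CPM in WT heads and 6819 to 8661 CPM in YFP heads. *Rh6*, a green-sensitive rhodopsin of inner photoreceptors, had 132.8, 153.2 and 134.7 CPM in G298S heads, against 229.6, 399.5 and 199.4 CPM in WT heads and 577.0 to 637.4 CPM in YFP heads. *trp*, the light-gated cation channel, had 792.1, 625.6 and 689.8 CPM in G298S heads, against 1053, 1943 and 1147 CPM in WT heads. *inaC*, the eye's protein kinase C, had 218.0, 199.8 and 234.3 CPM in G298S heads, against 292.0, 455.7 and 380.8 CPM in WT heads. In *Arr2*, *Rh6*, *trp* and *inaC* every G298S library lay below every WT library.

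The size of the photoreceptor difference moved with the scaling and with 1 library. With library sizes in place of TMM factors the list's median log2FC was −1.06. Without WT-505 it was −0.41, and without both WT-505 and G298S-503 it was −0.47. In the fit without both, 9 of 21 were lower and 1 higher at an unadjusted p value below 0.05, against 4.42% and 10% of all genes. Within the 2 against 2 libraries of 1 title prefix the list's median was −0.67. The mean log2 CPM of the list was 8.40, 8.40 and 8.40 in the G298S libraries, against 8.53, 9.39 and 8.68 in WT and 9.38, 9.44 and 9.24 in YFP. Eye pigment genes showed the same side in part, with 3 of 11 lower and 0 higher at an unadjusted p value below 0.05. These were *st*, *bw* and *cd*. *st*, the partner of the *w* transporter for brown pigment precursors, had 8.99, 9.16 and 9.11 CPM in G298S heads, against 11.3, 14.96 and 15.2 CPM in WT heads. *bw*, the partner for red pigments, had 20.7, 19.1 and 19.7 CPM in G298S heads, against 27.3, 40.2 and 26.4 CPM in WT heads.

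Kenyon cell markers, the cells in which the transgenes were driven, overlapped between the lines. Of 13 markers, 1 was higher and 0 lower at an unadjusted p value below 0.05, and the median log2FC was 0.31. This median was 0.65 without WT-505, 0.07 without WT-502 and −0.06 with library sizes in place of TMM factors, so its size and its sign depended on these choices. Without both WT-505 and G298S-503, 6 of the 13 were higher and 0 lower at an unadjusted p value below 0.05, against 10% and 4.42% of all genes. The 1 gene was *jdp*, at 364.8, 365.9 and 396.3 CPM in G298S heads, against 227.2, 351.1 and 232.5 CPM in WT heads. The abundant *Pka-C1*, the catalytic subunit of protein kinase A that olfactory memory requires, had a log2FC of 0.41. For general neuronal markers 0 of 14 had an unadjusted p value below 0.05 in either direction. Without both WT-505 and G298S-503, 4 of these 14 were higher and 0 lower at that level, with a median log2FC of 0.49. The neuronal list thus moved to the same side as the Kenyon cell list in that fit.

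Other cell types and tissues gave mixed members, to be read beside the 5.28% higher and 4.54% lower of all genes. Of 10 glial markers, 1 was higher and 2 lower at an unadjusted p value below 0.05. The 1 was *Eaat1*, the astrocyte glutamate transporter, with 584.8, 551.6 and 582.2 CPM in G298S heads, against 263.9, 411.3 and 355.6 CPM in WT heads. Of 10 fat body markers, 2 were higher and 2 lower at an unadjusted p value below 0.05. *Lsp2*, a larval storage protein also made by adult head fat body, had 191.1, 192.3 and 61.6 CPM in G298S heads, against 310.2, 530.2 and 440.7 CPM in WT heads. *to*, a circadian and feeding-related secreted protein, had a log2FC of −1.18, and *apolpp*, the main lipoprotein of the haemolymph, one of 0.64. Of 9 hemocyte markers 2 were higher and 0 lower, and of 19 muscle markers 1 was higher and 1 lower. For ovary follicle (16 tested), accessory gland (11), testis (12) and midgut (16) markers, 0 had an unadjusted p value below 0.05, although the ovary follicle median was 1.02.

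The counts of metabolic, sensory and stress genes stand against 5.28% higher and 4.54% lower among all genes at an unadjusted p value below 0.05. Of 14 glycolytic genes, 0 were higher and 6 lower at that level, with a median log2FC of −0.24. *Pgi*, phosphoglucose isomerase, had 373.7, 342.3 and 301.7 CPM in G298S heads, against 447.3, 490.6 and 486.5 CPM in WT heads. Of 80 cytochrome P450 genes 7 were higher and 9 lower, and of 54 cuticle genes 6 were higher and 3 lower, the last of these near the share of all genes. Of 32 neuropeptide genes 4 were higher and 1 lower. That one was *Ilp3*, an insulin-like peptide of the brain, at 30.8, 30.9 and 24.8 CPM in G298S heads, against 59.9, 66.8 and 35.0 CPM in WT heads. No heat shock gene of 15 and no proteasome gene of 31 had an unadjusted p value below 0.05. Of 12 genes of the endoplasmic reticulum stress response, 32 glutathione transferase genes, 11 circadian genes and 15 orthologues of ALS genes, 1 each was higher at that level. The ALS orthologue was *chic*, profilin, with a log2FC of 0.63. Of 33 odorant-binding protein genes 3 were higher and 1 lower, and of 4 histone genes tested 1 was higher. None of 7 dosage compensation genes and none of 5 activity-regulated genes had an unadjusted p value below 0.05.

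The unbound fractions gave a second library from each of the 6 lysates, taken after the pull-down. Of 12714 genes tested there, 9 were higher (0.0708%) and 3 lower (0.0236%) in TDP-43 G298S at an adjusted p value below 0.05 in edgeR. Unadjusted p values below 0.05 were found for 250 genes higher (1.97%) and 179 lower (1.41%). Groups did not overlap for 489 genes higher (3.85%) and 330 lower (2.6%). Of the 9 genes called in the inputs, 8 were called here too. The exception was *CR44383*, with a log2FC of 4.09 (edgeR adjusted p = 0.0595). The log2FC in the unbound fractions was 8.48 for *sordd2*, 4.18 for *CG12224*, 3.69 for *CG11893*, 1.80 for *Ugt35C1*, 1.70 for *CG31436*, −5.15 for *CG31219* and −4.24 for *CG31220*. The lysates are the same, so this shows that the values recur between libraries and not between flies.

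Of the other 4 genes called in the unbound fractions, *rtet*, a transporter homologue, had 11.0, 9.70 and 10.8 CPM in G298S, against 4.65, 4.25 and 3.81 CPM in WT. It was at 10.8, 6.69 and 8.19 CPM in the G298S inputs, against 3.64, 4.44 and 2.91 CPM in the WT inputs, with an edgeR adjusted p value of 0.16 there. *CG5112* had 42.1, 39.2 and 37.2 CPM in the G298S inputs, against 23.7, 26.6 and 24.1 CPM in the WT inputs. For both genes the YFP inputs lay with G298S, as they did for the 9 genes called in the inputs. *CG7906*, described above, fell in the unbound fractions, with 5.13, 5.16 and 5.34 CPM in G298S, against 14.9, 20.2 and 14.3 CPM in WT. For 12 of the 12 genes called in the unbound fractions, the groups did not overlap in the inputs and differed in the same direction. Among all genes the input groups did not overlap for 7.58% higher and 5.55% lower. Of the 12, 8 were genes already called in the inputs, and the lysates are the same.

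**Figure D5:**
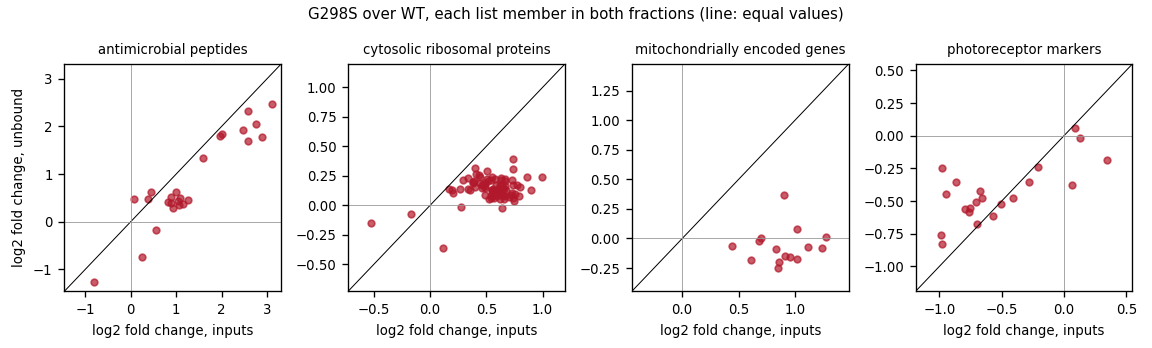
log2 fold change (G298S over WT) in the unbound fractions against that in the inputs of the same lysates, with 1 panel for each of 4 gene lists, 1 point per member and a diagonal line of equal values. Mitochondrially encoded genes (median 0.90 in inputs, −0.08 unbound) and ribosomal protein genes (0.57 and 0.14) lie below the diagonal in most cases, and photoreceptor genes (−0.68 and −0.48) lie on both sides of it.

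Photoreceptor genes lay lower in the G298S unbound fractions too, with a median log2FC of −0.48. Of 21, 0 were higher and 11 lower at an unadjusted p value below 0.05. Of all genes in these fractions, 1.97% were higher and 1.41% lower at that level. *Rh6* had 159.3, 197.6 and 167.8 CPM in the G298S unbound fractions, against 281.6, 396.6 and 254.2 CPM in those of WT. Antimicrobial peptides had a median of 0.49, with 9 of 25 higher and 1 lower, against the same 1.97% and 1.41%. *Dro* had 539.3, 279.8 and 280.8 CPM in the G298S unbound fractions, against 102.5, 39.1 and 56.4 CPM in those of WT. For mitochondrially encoded genes the median was −0.08, and for ribosomal protein genes 0.14, with 0 members of either list at an unadjusted p value below 0.05. *mt:ATPase6* had 6298, 9430 and 7950 CPM in the G298S unbound fractions, which overlapped the 9438, 11060 and 6699 CPM of WT. The share of *mt:lrRNA* was 32.6 ± 5.51% in the G298S unbound fractions and 27.8 ± 3.33% in those of WT (SD, n = 3 each, exact two-sided permutation p = 0.3).

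The difference between the fractions was tested with each lysate as a block, over the 9 inputs and 9 unbound fractions. Of 13210 genes, edgeR called 0 with a larger and 0 with a smaller G298S over WT difference in the inputs than in the unbound fractions. Unadjusted p values below 0.05 were found for 793 larger (6%) and 151 smaller (1.14%). The median of this difference was 0.12 over all genes, and 1.16 over the mitochondrially encoded genes, of which 14 of 15 were larger at an unadjusted p value below 0.05. Of the ribosomal protein genes 23 of 84 were larger, and of the antimicrobial peptides 12 of 25. Photoreceptor genes had a median of 0.02.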

How the data were processed

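The authors prepared SMART-Seq HT PLUS libraries from head lysates, aligned reads with STAR 2.6.1d after cutadapt 2.7, counted them per gene with featureCounts 1.6.3, and deposited whole-number counts, not normalised, in 1 table of 17529 genes. The submitters' processing notes give these versions and bcl2fastq 2.19.1.403. Genome release and strand setting are not given in the sources used here, so overlapping and antisense genes are uncertain. Symbols, arms and gene order came from Ensembl 115, which named 17425 identifiers.

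The test of the inputs was edgeR 4.0.16 in R 4.3.3 (TMM, filterByExpr, quasi-likelihood, Benjamini-Hochberg adjustment over all genes) in a fit of 9 inputs in 3 groups, with YFP sharing the spread. CPM are counts per 1e6 of TMM-scaled library size and need not sum to that number. Unbound fractions were fitted likewise. DESeq2 1.42.0, limma 3.58.1 and leaving out libraries were alternatives. Replicates are separate lysates.

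Named genes were those called with mean CPM of at least 1 and groups apart, filled by smallest p value to 10 per direction, the study's transcripts, and of each list the most abundant members. *CR44383*, below that mean, came in with the fill. Genes, comparisons and the 34 lists were chosen with earlier results of these data known, so no list was tested. Reads without molecular identifiers make counting error a lower limit.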

Additional observations from a re-analysis of the deposited data

How the results depend on the processing

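The 9 called genes kept their direction in all 191 values under the alternatives in which they were tested, and *sordd2* stayed past the threshold in 21 of 21. *CG31436* did so in 13 of 22, *CR44383* in 11 of 20 and *CG31220* in 12 of 20, and DESeq2 gave no adjusted p value to *CR44383* and *CG31220*. The count of calls was not stable. The causes were not tested. In the inputs, the counts higher and lower in TDP-43 G298S were 576 and 528 with DESeq2, 39 and 29 with DESeq2's size factors in edgeR, 57 and 2876 with library sizes alone (median of all genes −0.45), 222 and 72 with at least 10 counts in every library, 21 and 13 without mitochondrially encoded and rRNA genes, 14 and 18 with the IP libraries in the fit, and 21 and 17 with all 27 libraries. Of the calls, 77.8% were higher in the reported fit, against 52.2% with DESeq2, 57.4% with its size factors and 1.94% with library sizes alone. Only the 6 compared libraries gave 11 and 3, a test against a log2FC of 1 gave 5 and 1, and thinned counts gave 7 and 4. The 2 against 2 libraries of 1 title prefix gave 1 and 0. Leaving out 1 library gave 5 to 147 higher and 1 to 9 lower. Chosen after seeing the data, limma voom with quality weights gave 446 and 141, and leaving out G298S-503 and WT-505 gave 4 and 1. In the unbound fractions DESeq2 gave 35 and 67, library sizes alone 4 higher, the 6 libraries 2 and 1, the title prefix as covariate 5 and 1, and leaving out both libraries 3 and 1. Leaving out 1 library gave 4 to 6 higher and 1 to 2 lower there. The share of *mt:lrRNA* differed by 10.5 to 14.7 points throughout.

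Of the 66 genes named without a call, 9 changed sign in 19 of 1445 values. With library sizes alone the log2FC was −0.17 for *dlp*, −0.16 for *futsch*, −0.16 for *Dscam2*, −0.14 for *fz*, −0.38 for *BomBc2*, −0.063 for *RpS3A* and −0.020 for *Dif*. Leaving out 1 library gave −0.041 to 0.63 for *futsch*, −0.0033 to 0.61 for *Dscam2*, −1.09 to 0.30 for *Hsp70Bb* and −0.25 to 0.44 for *BomBc2*, with the change of sign without WT-202 in all 4. *BomBc2* was also at −0.035 without G298S-503, −0.11 within the title prefix, −0.13 with voom and −0.10 without both libraries. *w* was at 0.0044 and 0.055, and *Hsp70Bb* at 0.14 and 0.82, within the prefix and with voom. No paired analysis was possible because the groups compared share no replicate numbers in the labels. The title prefix, which they do share, gave 10 higher and 2 lower in the inputs as a covariate.

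The spread was estimated from 3 libraries per genotype, and a gene that did not pass is not shown to be alike. Each protein is represented by 1 line, and the calls cannot be assigned to the variant rather than to the line. Levels near 0 rest on few counts, for which counting error is a lower limit.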
